A study of Mus musculus with 18 samples.

Results

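The interval between Hoxd1 and Mtx2 is a stretch of 59.2 kb on mouse chromosome 2. It starts 1.43 kb past the end of Hoxd1 (position 74603200 in mm9), the last gene of the HoxD cluster on that side, and reaches the first base of Mtx2, which codes for metaxin 2, a protein of the mitochondrial outer membrane. Its last fragment ends at position 74663675. GENCODE M1 annotates no gene inside it, so all of its fragments are intergenic. Its contacts were measured by 5C: EcoRI fragments of crosslinked chromatin are ligated to their neighbours in space, and a forward primer on one fragment joined to a reverse primer on the other reports how often the pair was ligated. Members were all forward–reverse pairs with fragment midpoints at least 10 kb apart and an end on a fragment whose midpoint lies in the interval. In the design used for ESCs these were 916 of 4251 pairs, from 15 of 133 fragments. In the design used for limb cells they were 1352 of 10068 pairs, from 14 of 203 fragments.

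The HoxD cluster holds homeobox genes that give cells their position along the trunk and limb, and it lies between gene-poor regions that carry limb enhancers on either side. The side of Hoxd13 and Evx2 holds digit enhancers such as the GCR and Prox, and the side of Hoxd1, beyond Mtx2, is a gene desert known for enhancers of the early and proximal limb. The stretch between Hoxd1 and Mtx2 thus lies between the cluster and that desert. In ESCs the cluster is silenced by Polycomb complexes, of which PRC2, with Eed, methylates Lys27 of histone H3, and PRC1, with Ring1B, ubiquitinates histone H2A and compacts chromatin.

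The ESC libraries, 14 in number, came from OS25 mESCs, undifferentiated (2) or differentiated for 3 d, of which 2 d with retinoic acid (RA) (D3, 2), from WTF18 ESCs as the wild type (2), from Eed-/- cells (2), from Ring1B-/- cells (3), and from Ring1B-/- cells to which wild-type Ring1B (2) or the mutant Ring1B I53A (1) was added, made to lack ubiquitin ligase activity. The labels give growth on feeder fibroblasts for all ESC libraries, and per the methods the feeders were removed before 5C. The labels title the wild-type libraries as wild type for Ring1B, so the line in which Eed was deleted is not matched to them by the labels, and the methods name 2 Eed-/- clones without saying which library came from which. The limb libraries (4) came from mesenchymal cell lines of distal forelimb buds of E10.5 Immortomouse embryos, with a single anterior line (A2, 2 libraries) and a single posterior line (P2, 2 libraries). Nothing in the labels ties libraries of different groups to each other, and p-values measure the spread between these libraries.

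Frequencies are given as deposited, in reads per 1000 reads of the sequence run, and the level of a region is the mean over its fragment pairs with empty pairs counted as 0. The totals ran from 216419 to 1708047 reads in ESC libraries and from 478818 to 2096681 in limb libraries, so that 3 reads correspond to at most 0.0139 and 0.00627. These limits cover counting error only. Between 25.0% and 68.6% of the interval's pairs held no read in an ESC library, against 3.25% to 28.3% in a limb library. Replicates correlated at r = 0.30 to 0.47 over single pairs of the interval in ESCs and at 0.67 to 0.77 in limb cells (log2 scale, across fragment pairs that share fragments and are not independent). Single pairs were accordingly noisy in ESCs, and regions were compared by their means.

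The fragments that made the strongest contacts can be identified by their ends. Each line gives the bases of the plus strand of mm9 that close with the EcoRI site at the end of the fragment, with the site in capitals. They are shown because the pairs mHoxD_96–mHoxD_183, mHoxD_93–mHoxD_110, mHoxD_111–mHoxD_115, mHoxD_92–mHoxD_118 and mHoxD_111–mHoxD_120, described further on, were among the 3 highest of one or more groups.
mHoxD_92 with the 3′ end of Hoxd3, chr2:74591723-74591762: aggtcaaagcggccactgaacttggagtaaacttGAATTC
mHoxD_93 between Hoxd3 and Hoxd1, chr2:74598942-74598981: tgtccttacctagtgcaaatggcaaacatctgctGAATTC
mHoxD_96 at the Hoxd1 end of the interval, chr2:74605662-74605701: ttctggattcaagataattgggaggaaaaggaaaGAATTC
mHoxD_110 in the middle of the interval, chr2:74640597-74640636: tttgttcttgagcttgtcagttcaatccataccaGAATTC
mHoxD_111 next to it, chr2:74650771-74650810: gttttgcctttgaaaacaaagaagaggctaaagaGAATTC
mHoxD_115 in the segment next to Mtx2, chr2:74658354-74658393: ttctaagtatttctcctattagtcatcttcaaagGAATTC
mHoxD_118 at the Mtx2 end, chr2:74663639-74663678: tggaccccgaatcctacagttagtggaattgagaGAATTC
mHoxD_120 in an intron of Mtx2, chr2:74679473-74679512: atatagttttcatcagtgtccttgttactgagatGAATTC
mHoxD_183 in the desert, the last fragment of the design, chr2:74907742-74907781: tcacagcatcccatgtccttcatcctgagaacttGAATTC

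The letters of the interval were also searched, on both strands, for AGGGGGC, the core of the consensus of CTCF, a protein that binds at many loop and domain borders. The core occurred 7 times, in 4 of 15 fragments of the ESC design (26.7%, against 30.1% of all 133 fragments) and in 3 of 14 of the limb design (21.4%, against 29.1% of all 203). Stretches of the same length laid across the design, 19 in number, held 2 to 19 matches with a median of 6, and 100% held one or more. The matches in mHoxD_111 and mHoxD_118, fragments with high contacts, are printed with the core in capitals and read 5′ to 3′ on the strand that matches.
mHoxD_111, plus strand, chr2:74644848-74644884: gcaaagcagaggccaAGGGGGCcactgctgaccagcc
mHoxD_111, minus strand, chr2:74644980-74645016: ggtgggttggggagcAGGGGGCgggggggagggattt
mHoxD_118, plus strand, chr2:74663288-74663324: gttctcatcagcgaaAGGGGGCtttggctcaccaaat
Of the other fragments with high contacts, mHoxD_96 and mHoxD_115 held no match, while mHoxD_100 and mHoxD_103 of the ESC design held 1 each. The remaining matches lay in no fragment of the design. A match is a string of letters and was not tested for binding. The interval had a GC content of 41.4%, near the median of those stretches (41.9%), and held 7.80 CG dinucleotides per kb, against a median of 9.93.

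**Figure D1:**
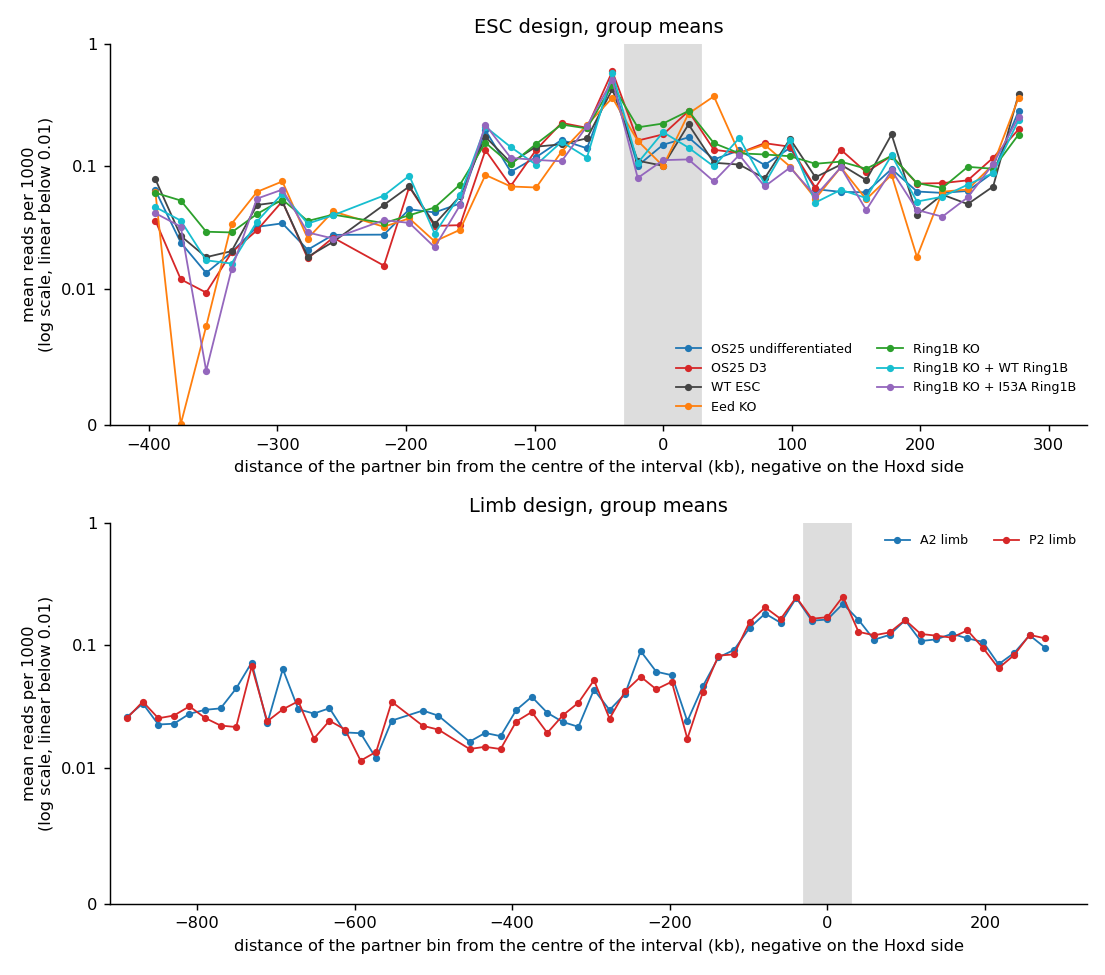
Mean interaction frequency of the interval with each bin along the region, as group means in ESCs (top) and limb cells (bottom), against the distance of the partner bin from the interval's centre (grey, the interval itself). The vertical axis is logarithmic above 0.01 and linear below. KO in the key stands for -/-. The bin beside the interval on the Hoxd side was the highest of all in 7 of 9 groups, at 0.243 (A2) to 0.598 (D3), while in Eed KO it had 0.363 against 0.374 in the first bin of Mtx2 and in P2 it had 0.247 against 0.250 inside the interval.

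In 13 of 18 libraries the interval's highest level was with the 3′ part of the cluster (Hoxd4, Hoxd3 and Hoxd1), at 10.8 to 111 kb. In the other libraries (Eed-/- 2, Ring1B-/- 1 and 2, A2 2 and P2 2) the level inside the interval was above that with 3′ Hoxd. Over 80 pairs the level was 0.289 and 0.207 reads per 1000 in undifferentiated OS25 mESCs, 0.358 and 0.281 in D3 cells and 0.248 and 0.216 in wild-type ESCs. It was 0.190 and 0.245 in Eed-/- ESCs, and 0.298, 0.252 and 0.300 in Ring1B-/- ESCs. With wild-type Ring1B restored it was 0.259 and 0.263, and with the I53A mutant 0.243. The groups overlapped, apart from the Ring1B-/- libraries, which all lay above the wild-type ESCs. The largest difference was that of D3 cells from undifferentiated cells, a log2 difference of 0.35 (95% interval -0.15 to 0.85, limma adjusted p = 0.375). In limb cells the level over 68 pairs was 0.230 and 0.153 in A2 and 0.233 and 0.183 in P2, again with overlap. These 3′ Hoxd pairs were 8.73% of the interval's pairs in the ESC design and carried 20.7% (Eed-/-) to 26.5% (D3) of its summed frequency by group. In limb cells they were 5.03% of the pairs and carried 13.9% in A2 and 15.2% in P2.

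Contacts with the 5′ part of the cluster, from Hoxd13 to Hoxd8, which holds the genes used in the distal limb, were lower. Over 82 pairs at 59.7 to 160 kb the level was 0.112 and 0.110 in undifferentiated cells, 0.130 and 0.0778 in D3 cells and 0.117 and 0.113 in wild-type ESCs. Eed-/- ESCs had 0.0529 and 0.0905, the former being the lowest of all ESC libraries. Ring1B-/- ESCs had 0.15, 0.0793 and 0.148, those with wild-type Ring1B 0.107 and 0.142, and those with I53A 0.112. Both Eed-/- libraries lay below both wild-type ESC libraries, with a log2 difference of -0.59 (95% interval -1.21 to 0.03), which did not pass the test (limma adjusted p = 0.230). A2 limb cells had 0.117 and 0.109 and P2 limb cells 0.104 and 0.130 over 77 pairs, and the libraries of the 2 lines overlapped (log2 difference 0.04, 95% interval -0.34 to 0.41).

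Levels with Mtx2 differed most between Eed-/- and wild-type ESCs. Over 83 pairs with the gene, at 10.7 to 111 kb, they were 0.136 and 0.238 in Eed-/- ESCs against 0.0717 and 0.121 in wild-type ESCs, without overlap. Undifferentiated cells had 0.129 and 0.107 and D3 cells 0.160 and 0.134. Ring1B-/- ESCs had 0.163, 0.111 and 0.134, those with wild-type Ring1B 0.109 and 0.119, and the I53A library 0.0953. The difference was not called, at 0.82 on the log2 scale (standard error 0.28, 95% interval 0.24 to 1.40, limma adjusted p = 0.0623). It passed the threshold when libraries were scaled to equal sums over pairs at least 10 kb apart (log2 difference 1.03, limma adjusted p = 0.0093). With each primer scaled to an equal mean, in a single division by the means of both primers, the direction turned (-0.23, limma adjusted p = 0.507). That scaling by construction reduces any change that a fragment shows with all its partners. Without library 2 of the Eed-/- ESCs the log2 difference was 0.45, without library 1 of the wild-type ESCs 0.51, and without either other library it was called (1.18 and 1.13). The share of the interval's frequency that went to Mtx2 was 9.01% ± 2.02 (SD, n = 2) in wild-type ESCs and 18.0% ± 2.94 (SD, n = 2) in Eed-/- ESCs, for 9.06% of the pairs. In limb cells the level over 77 pairs was 0.147 and 0.111 in A2 and 0.145 and 0.109 in P2.

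With the gene desert beyond Mtx2, 60.5 to 302 kb away, levels were below those with Mtx2 in every group but wild-type ESCs, the mean in Eed-/- ESCs being 0.0849 with the desert against 0.187 with Mtx2. Over 330 pairs they were 0.0997 and 0.0699 in undifferentiated cells, 0.117 and 0.0865 in D3 cells, and 0.0840 and 0.120 in wild-type ESCs. Eed-/- ESCs had 0.0767 and 0.0931, Ring1B-/- ESCs 0.111, 0.0933 and 0.1, those with wild-type Ring1B 0.0735 and 0.0966, and the I53A library 0.0750. The mean in wild-type ESCs was 0.102, against 0.0963 with Mtx2. The high pairs of mHoxD_96 with mHoxD_183 and mHoxD_156, described further on, entered the former. The wild-type mean without both was not computed. All groups with replicates overlapped their control group, and the largest difference, D3 against undifferentiated, was 0.22 on the log2 scale (95% interval -0.29 to 0.74, limma adjusted p = 0.577). The desert took 32.0% to 38.2% of the interval's frequency by ESC group, with 36% of the pairs. In limb cells, whose design reaches further to the 5′ side, its 22.8% of the pairs carried 35.1% in A2 and 35.9% in P2, at levels of 0.113 and 0.0982 in A2 and 0.123 and 0.0937 in P2.

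The 5′ flank, with Evx2, Lnp, Prox and the GCR, was the partner that the interval contacted least within the ESC design. Over 307 pairs at 115 to 418 kb the level was 0.0411 and 0.0320 in undifferentiated cells, 0.0338 and 0.0269 in D3 cells and 0.0340 and 0.0475 in wild-type ESCs. Eed-/- ESCs had 0.0318 and 0.0345, Ring1B-/- ESCs 0.0529, 0.0407 and 0.0455, those with wild-type Ring1B 0.0398 and 0.0493, and the I53A library 0.0382. The share of the interval's frequency was 13.6% in undifferentiated cells and 9.66% in D3 cells, for 33.5% of the pairs. Limb cells had 0.0409 and 0.0294 (A2) and 0.0349 and 0.0267 (P2) over 294 pairs, and with the far 5′ desert, covered by the limb design alone and 374 to 907 kb away, 0.0260 and 0.0252 (A2) and 0.0245 and 0.0202 (P2) over 497 pairs. P2 differed from A2 in these 2 windows by -0.11 on the log2 scale in each (limma adjusted p = 0.927).

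Contacts inside the interval were compared over 34 pairs at 10.3 to 55.5 kb. Levels were 0.155 and 0.130 in undifferentiated cells and 0.212 and 0.226 in D3 cells, without overlap (log2 difference 0.56, 95% interval -0.06 to 1.18, limma adjusted p = 0.244). Wild-type ESCs had 0.144 and 0.161, Eed-/- ESCs 0.144 and 0.304, and Ring1B-/- ESCs 0.306, 0.270 and 0.171. Cells with wild-type Ring1B had 0.149 and 0.151, and the I53A library 0.107, the lowest of all 14. All Ring1B-/- libraries lay above the wild-type ESCs (log2 difference 0.60, 95% interval 0.04 to 1.17) and above the cells with wild-type Ring1B (-0.62, 95% interval -1.19 to -0.05), and neither difference passed the test after adjustment (limma adjusted p = 0.182 for both). Without library 3 of the Ring1B-/- ESCs both were called, at 0.83 and -0.85 (limma adjusted p = 0.0102 and 0.0088), and with primers scaled to equal means both turned direction, to -0.32 and 0.14. The I53A library has no replicate and was not tested. In limb cells the inside level over 31 pairs was 0.186 and 0.176 in A2 and 0.2 and 0.201 in P2, a log2 difference of 0.13 (95% interval -0.24 to 0.51).

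In all, 0 of 24 levels of the interval were called in the ESC contrasts, against 9 of 84 over all window pairs (10.7%). By contrast, the share over all window pairs was 9.52% for D3, 19.0% for Eed-/-, 4.76% for Ring1B-/- and 9.52% for wild-type Ring1B. In limb cells 0 of 7 were called, against 1 of 28 over all window pairs (3.57%). At an unadjusted p under 0.05, 3 levels of the interval differed in ESCs (Mtx2 for Eed-/-, and the inside for both contrasts of Ring1B) and 0 in limb cells. The share over all window pairs at that threshold was not computed, so these counts cannot be set against the region.

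**Figure D2:**
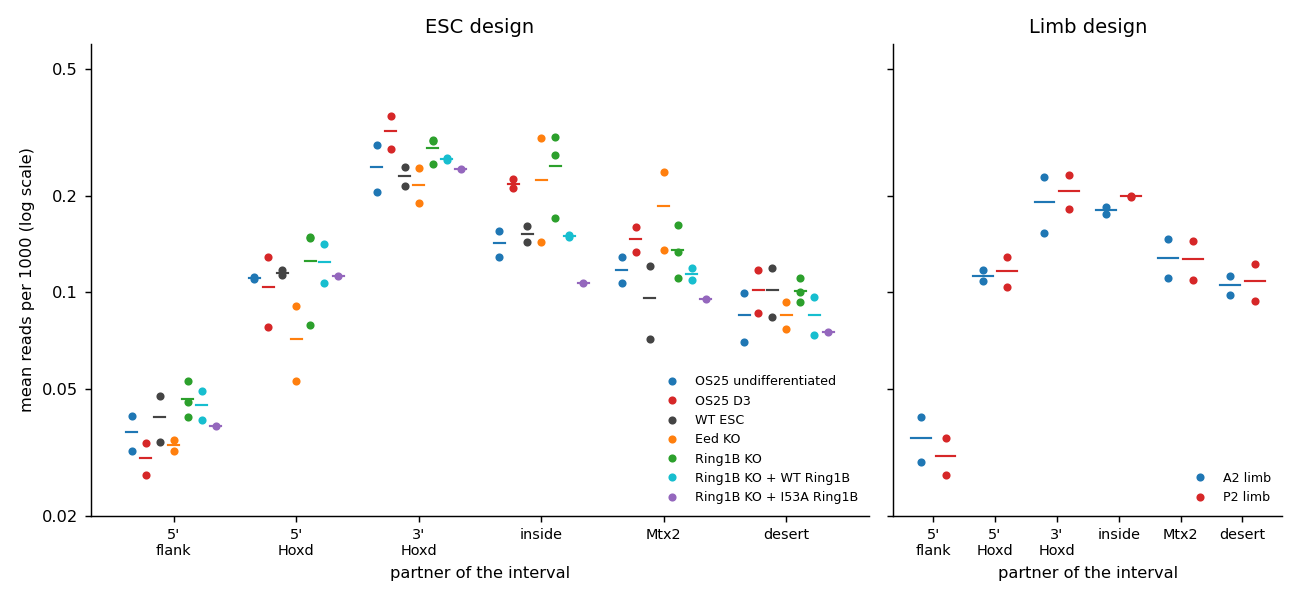
Level of the interval with each partner window in every library (points) and the group mean (bars), in mean reads per 1000 on a logarithmic axis, for ESCs (left) and limb cells (right), where the far 5′ desert is not drawn. Levels with the 3′ Hoxd genes lay between 0.190 and 0.358 in ESCs and levels with the 5′ flank between 0.0269 and 0.0529, and both Eed KO points stood above both WT ESC points for Mtx2.

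Distances differ between these partners, so ratios within a library were taken at matched genomic distance. In each of a set of distance classes the mean frequency of one kind of pair was divided by that of another, and the log2 ratios were averaged over the classes. The scaling of a library cancels in such a ratio, and distance is matched as far as the width of a class. The interval's contacts with the cluster were compared with its contacts with Mtx2 and the desert, over classes from 20 to 160 kb. This cluster preference was 0.54 and 0.82 in undifferentiated cells, 0.43 and 0.38 in D3 cells, and 1.14 and 0.12 in wild-type ESCs. For Ring1B-/- ESCs it was 0.32, 0.37 and 0.60, for those with wild-type Ring1B 0.65 and 0.53, and the I53A library 0.73. All these libraries leaned to the cluster, and the group mean was above 0 by the test in undifferentiated cells (0.68, limma adjusted p = 0.0033), wild-type ESCs (0.63, 0.0054), Ring1B-/- ESCs (0.43, 0.0165) and those with wild-type Ring1B (0.59, 0.0077), and not in D3 cells (0.41, 0.0528). The Eed-/- libraries alone among ESCs were below 0, at -0.35 and -0.19. Limb cells lay close to 0, at -0.08 and -0.02 in A2 and -0.04 and 0.19 in P2 (limma adjusted p = 0.513 and 0.353).

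From wild-type to Eed-/- ESCs the cluster preference fell by 0.90 on the log2 scale (-0.27 against 0.63, 95% interval -1.42 to -0.38, limma adjusted p = 0.0108). All 4 libraries kept the order, but the wild-type ESCs differed widely from each other. Without library 1 of the wild-type ESCs the difference was -0.39 (limma adjusted p = 0.166), and without library 1 of the Eed-/- ESCs it was -0.82 (limma adjusted p = 0.0900). With each primer scaled to an equal mean it was 0.15, and under that scaling the preference was negative in every group with replicates except D3, where it was 0.04. In the class of 20 to 40 kb, which holds 5 pairs with Mtx2, the Eed-/- frequencies with Mtx2 were 0.732 and 0.644, above all 12 other ESC libraries (0.102 to 0.324). The single pair mHoxD_111–mHoxD_120, 26.7 kb apart, lies in this class. At 2.90 and 2.44 in the Eed-/- libraries, it made up most of both values. Against a background of pairs lying inside the 5′ flank or inside Mtx2 and the desert, contacts with the cluster were also lower in Eed-/- ESCs, at -0.49 and -0.28 against 0.54 and 0.32 (log2 difference -0.81, limma adjusted p = 0.0172). This difference turned to 0.22 (limma adjusted p = 0.561) with primers scaled, and the call was lost over pairs at least 20 kb apart (-0.65, 0.0539), with only the compared groups fitted (0.255) and without library 1 of the Eed-/- ESCs (-0.70, 0.149). The matching ratio for Mtx2 and the desert was not distinguished (-0.05 against -0.15, limma adjusted p = 0.841).

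Contacts of the interval with the 5′ flank lay below the background in every group tested, over the classes of 110 to 160 and 160 to 250 kb. These pairs span the whole cluster, whereas background pairs do not. The log2 ratio was -0.66 and -0.98 in undifferentiated cells, -1.48 and -1.68 in D3 cells, -0.87 and -0.11 in wild-type ESCs, and -1.59 and -1.92 in Eed-/- ESCs. Ring1B-/- ESCs had -1.0, -0.50 and -0.80, those with wild-type Ring1B -0.69 and -0.57, and the I53A library -0.52. In limb cells it was -1.28 and -1.38 in A2 and -1.70 and -1.66 in P2. All 18 libraries were below 0. The group mean was below 0 by the test in all 8 groups with replicates, with limma adjusted p from 3.36e-09 (Eed-/-) to 0.0242 (wild-type ESCs). In wild-type ESCs it was -0.16 when 10 kb were taken off each end of the interval, and -0.11 without library 1. Over all such ratios against 0, 13 of 24 were called in ESCs (54.2%) and 2 of 8 in limb cells (25.0%).

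From undifferentiated to D3 cells this ratio fell by 0.76 on the log2 scale (95% interval -1.28 to -0.24, limma adjusted p = 0.0219). From wild-type to Eed-/- ESCs it fell by 1.26 (95% interval -1.78 to -0.75, limma adjusted p = 0.000444). From A2 to P2 limb cells it fell by 0.35 (95% interval -0.58 to -0.11, limma adjusted p = 0.0359). In each of these comparisons the libraries of the groups did not overlap. Frequencies behind them, at 110 to 160 kb, were 0.0863 and 0.0752 in undifferentiated and 0.0433 and 0.0602 in D3 cells, and the background there was 0.0980 and 0.0943 against 0.137 and 0.120. In Eed-/- ESCs they were 0.0384 and 0.0398 on a background of 0.104 and 0.179, against 0.0608 and 0.105 on a background of 0.0854 and 0.0825 in wild-type ESCs. In A2 limb cells they were 0.0397 and 0.0264 on a background of 0.117 and 0.0909, and in P2 0.0296 and 0.0245 on 0.126 and 0.0861. Numerator and background thus both moved. The D3 difference was -0.48 (limma adjusted p = 0.299) with distance classes of 20 kb, and its call was also lost with primers scaled (-0.76, 0.227) and with its own spread (-0.76, 0.121). It was -0.60 (limma adjusted p = 0.277) without library 1 of the undifferentiated cells, -0.86 (0.0557) without library 1 of the D3 cells and -0.66 (0.208) without library 2. The limb difference lost its call without either A2 library (-0.30 without library 1 and -0.40 without library 2, limma adjusted p = 0.544 and 0.272). The Eed-/- difference passed without each library in turn, from -0.88 to -1.64, and was -0.60 (limma adjusted p = 0.304) with primers scaled to equal means.

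Neither Ring1B-/- against wild-type ESCs nor wild-type Ring1B against Ring1B-/- gave a called ratio (0.0% of 4 each, lowest limma adjusted p = 0.761, and none at an unadjusted p under 0.05). For the cluster preference the differences were -0.20 (95% interval -0.67 to 0.28) and 0.16 (-0.31 to 0.63), and for the 5′ flank -0.27 (-0.75 to 0.20) and 0.14 (-0.33 to 0.61). Called ratios were 1 of 4 for D3 (25.0%), 3 of 4 for Eed-/- (75.0%) and 1 of 4 in limb cells (25.0%). These shares are over the ratios of the interval alone, as no other region was put through them.

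**Figure D3:**
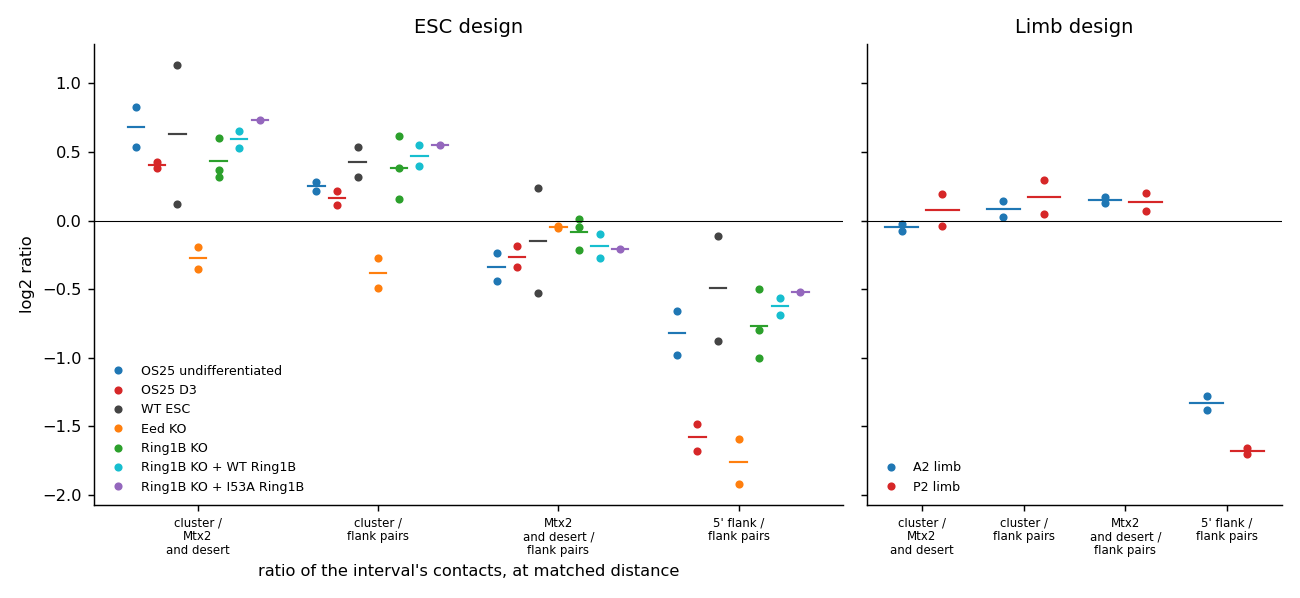
Log2 ratios of the interval's contacts at matched distance in each library (points) with group means (bars), for ESCs (left) and limb cells (right). Flank pairs are those lying inside the 5′ flank or inside Mtx2 and the desert, and 0 marks equal frequencies. Eed KO stood below 0 for the cluster over Mtx2 and desert at -0.35 and -0.19, and all 18 libraries stood below 0 for the 5′ flank.

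Within the interval, levels differed with position. The interval was split in 3 segments of equal length, which hold 10, 2 and 3 fragments in the ESC design from the Hoxd1 end on. The segment next to Mtx2 made contacts with the 3′ Hoxd genes over a median distance of 91.4 kb (17 pairs) at 0.305 and 0.211 in undifferentiated cells and at 0.592 and 0.564 in D3 cells, which did not overlap. Wild-type ESCs had 0.196 and 0.244 there and Eed-/- ESCs 0.373 and 0.352, also without overlap. Ring1B-/- ESCs had 0.361, 0.224 and 0.353, those with wild-type Ring1B 0.251 and 0.274, and the I53A library 0.305. D3 cells thus held the highest values of the 14 libraries for this segment. The segment next to Hoxd1, at a median distance of only 47.2 kb from the same genes, had 0.189 and 0.188 in undifferentiated cells, 0.220 and 0.190 in D3 cells, 0.231 and 0.199 in wild-type ESCs and 0.117 and 0.207 in Eed-/- ESCs. The segment next to Mtx2 was above the segment next to Hoxd1 in 13 of 14 ESC libraries, library 1 of the wild-type ESCs being the exception (0.196 against 0.231). The middle segment, with 2 fragments and 11 pairs, had 0.737 and 0.289 in undifferentiated cells, 0.650 and 0.269 in D3 cells, 0.407 and 0.252 in wild-type ESCs and 0.250 and 0.261 in Eed-/- ESCs. It was the highest of the 3 segments in both libraries of the undifferentiated and wild-type ESCs and in neither of the Eed-/- ESCs. It was also highest in both libraries with wild-type Ring1B (0.434 to 0.490), in library 1 of the D3 cells and in libraries 2 and 3 of the Ring1B-/- ESCs (0.487 and 0.366). In library 2 of the D3 cells, library 1 of the Ring1B-/- ESCs (0.344) and with I53A (0.276) it was not. The pair mHoxD_93–mHoxD_110, at 6.24 and 3.12, made up most of the level in library 1 of the undifferentiated and wild-type ESCs. The same held in library 1 of the D3 cells (4.43) and of the Eed-/- ESCs (1.76) and in library 2 of the Ring1B-/- ESCs (3.45). It also held in both libraries with wild-type Ring1B (3.75 and 2.89) and with I53A (2.15). The order of the segments without this pair was not computed. In limb cells the segment next to Mtx2 was higher with the 3′ Hoxd genes (0.353 and 0.218 in A2, 0.362 and 0.283 in P2) than the segment next to Hoxd1 (0.191 and 0.127 in A2, 0.202 and 0.15 in P2), in all 4 libraries. Toward Mtx2 the segment beside it had 0.4 and 0.426 in Eed-/- ESCs against 0.115 and 0.218 in wild-type ESCs. Segments differ in primers as well as in position, so these are descriptions.

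Fragments of the interval covered a wide range. In ESCs the mean over all partners had a median over libraries of 0.214 for mHoxD_96, 0.164 for mHoxD_118, 0.158 for mHoxD_111 and 0.134 for mHoxD_115, and of 0.0237 for both mHoxD_106 and mHoxD_101. In limb cells mHoxD_111 (0.138), mHoxD_115 (0.120) and mHoxD_118 (0.114) were again high and mHoxD_106 (0.0211) was lowest. Fragment mHoxD_111 is the longest, with 10174 bases, and mHoxD_106 has 2859. The efficiency of single primers and the length of fragments can differ between fragments, and their part in these means was not tested.

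**Figure D4:**
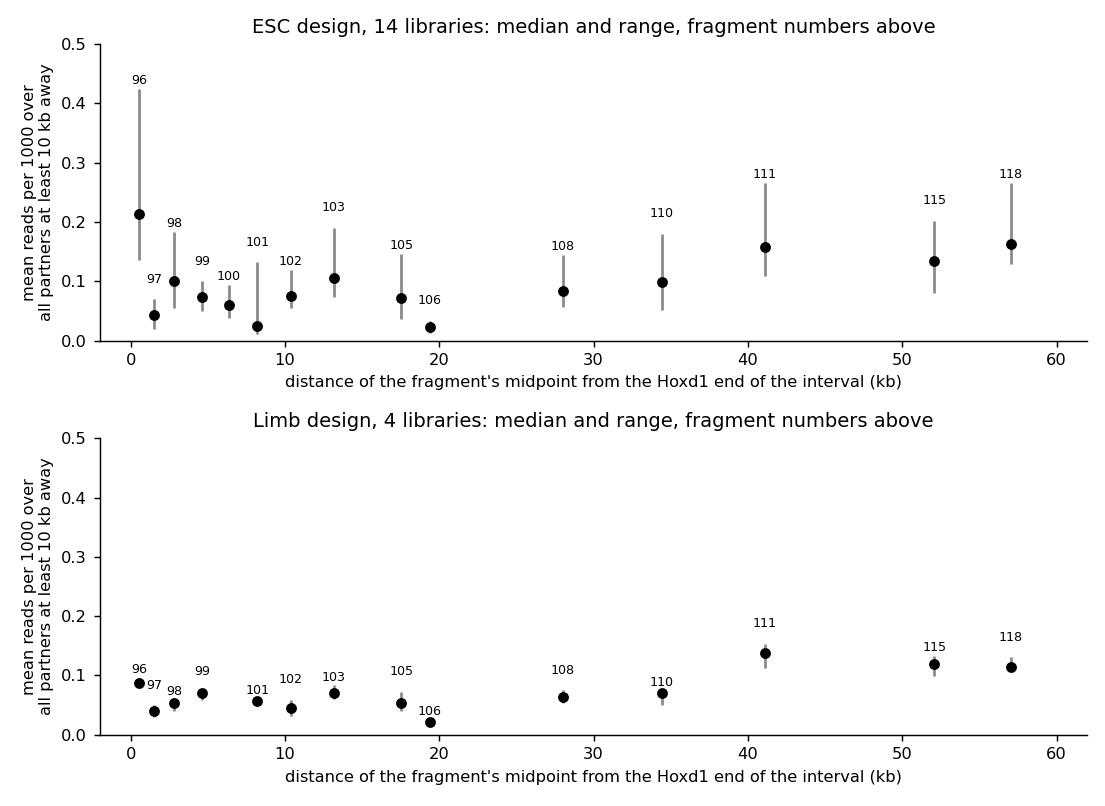
Mean frequency of each fragment of the interval over all partners at least 10 kb away, as the median (point) and range (line) over 14 ESC libraries (top) and 4 limb libraries (bottom), against the position of the fragment's midpoint from the Hoxd1 end. Fragments mHoxD_111, mHoxD_115 and mHoxD_118 near Mtx2 were high in both designs, and mHoxD_106 was low in both.

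Single fragment pairs gave the sharpest contacts, and the 3 highest in each group were taken. The longest of them joined mHoxD_96, the first fragment of the interval, to mHoxD_183, the last fragment of the design, over 302 kb. It had 0.749 and 5.76 reads per 1000 in undifferentiated cells, 0.484 and 2.70 in D3 cells, 2.75 and 7.22 in wild-type ESCs and 1.94 and 6.43 in Eed-/- ESCs. Values were 0.427, 2.00 and 1.53 in Ring1B-/- ESCs, 2.96 and 1.92 in those with wild-type Ring1B, and 2.71 in the I53A library. It was among the 3 highest pairs of all 7 ESC groups, although replicates of a group differed widely. In limb cells the same pair had 0.0786 and 0.275 in A2 and 0.113 and 0.191 in P2, and it was not among the highest. The contact of mHoxD_96 with mHoxD_156, also in the desert and 213 kb away, reached 6.68 in library 2 of the wild-type ESCs and 1.03 in library 1. In undifferentiated, D3 and Eed-/- cells that pair had 0.0691 to 0.383. Ring1B-/- ESCs had 0.187, 0.188 and 2.05, those with wild-type Ring1B 0.647 and 3.00, and the I53A library 2.30, so replicates again disagreed.

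Next came mHoxD_93, between Hoxd3 and Hoxd1, with mHoxD_110 in the middle of the interval, 43.7 kb apart. Its frequency was 6.24 and 1.26 in undifferentiated cells, 4.43 and 0.864 in D3 cells, 3.12 and 1.36 in wild-type ESCs and 1.76 and 1.2 in Eed-/- ESCs. It was 0.608, 3.45 and 1.81 in Ring1B-/- ESCs, 3.75 and 2.89 in those with wild-type Ring1B, and 2.15 with I53A. Limb libraries had 0.184 to 0.263. All 14 ESC libraries were thus above all limb libraries, but the designs differ in their primers and no test was made across them.

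Some pairs at the Mtx2 end stood apart in a group, but each was listed for being among the highest of that group. The pair of mHoxD_111 and mHoxD_115, at the same end, did not separate groups. The pair of mHoxD_92, with the end of Hoxd3, and mHoxD_118, 73.0 kb apart, had 0.505 and 0.381 in undifferentiated and 1.66 and 1.88 in D3 cells, the highest of all ESC libraries. It had 0.548 and 0.565 in wild-type and 1.01 and 1.33 in Eed-/- ESCs. Between mHoxD_111 and the Mtx2 intron in mHoxD_120, 26.7 kb apart, Eed-/- ESCs had 2.90 and 2.44 against 0 and 0.612 in wild-type ESCs, with no more than 0.876 in any other ESC library and 0.230 to 0.429 in limb libraries. The pair of mHoxD_98 and mHoxD_129, an exon of Mtx2 97.3 kb away, had 0.182 and 3.98 in Eed-/- and 0.188 and 2.25 in undifferentiated cells. Libraries of a group thus disagreed. Without the pair of highest mean over all ESC libraries, the Eed-/- difference with Mtx2 was 0.74 (limma adjusted p = 0.0597). The pair left out was not mHoxD_111–mHoxD_120, and the difference without mHoxD_111–mHoxD_120 was not computed. Inside the interval, mHoxD_111 with mHoxD_115 had 0.590 and 3.64 in Eed-/- ESCs, 0.930 and 1.54 in wild-type ESCs and 0.603 to 2.29 in the other ESC libraries. Single pairs were picked for being highest in a group, so no test was made on them. In limb cells the highest pairs were mHoxD_111 with mHoxD_115 (0.436 and 0.829 in A2, 0.984 and 1.02 in P2), mHoxD_118 with mHoxD_120 (0.475 and 0.892 in A2, 0.238 and 0.547 in P2), and mHoxD_118 with mHoxD_84 in an intron of Hoxd3, 108 kb away (0.614 and 0.281 in A2, 0.629 and 0.548 in P2). They were joined by mHoxD_111 with mHoxD_82, which carries the start of Hoxd3 (0.368 and 0.431 in A2, 0.526 and 0.509 in P2), and by mHoxD_96 with mHoxD_92, 16.5 kb away (0.605 and 0.291 in A2, 0.411 and 0.219 in P2).

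**Figure D5:**
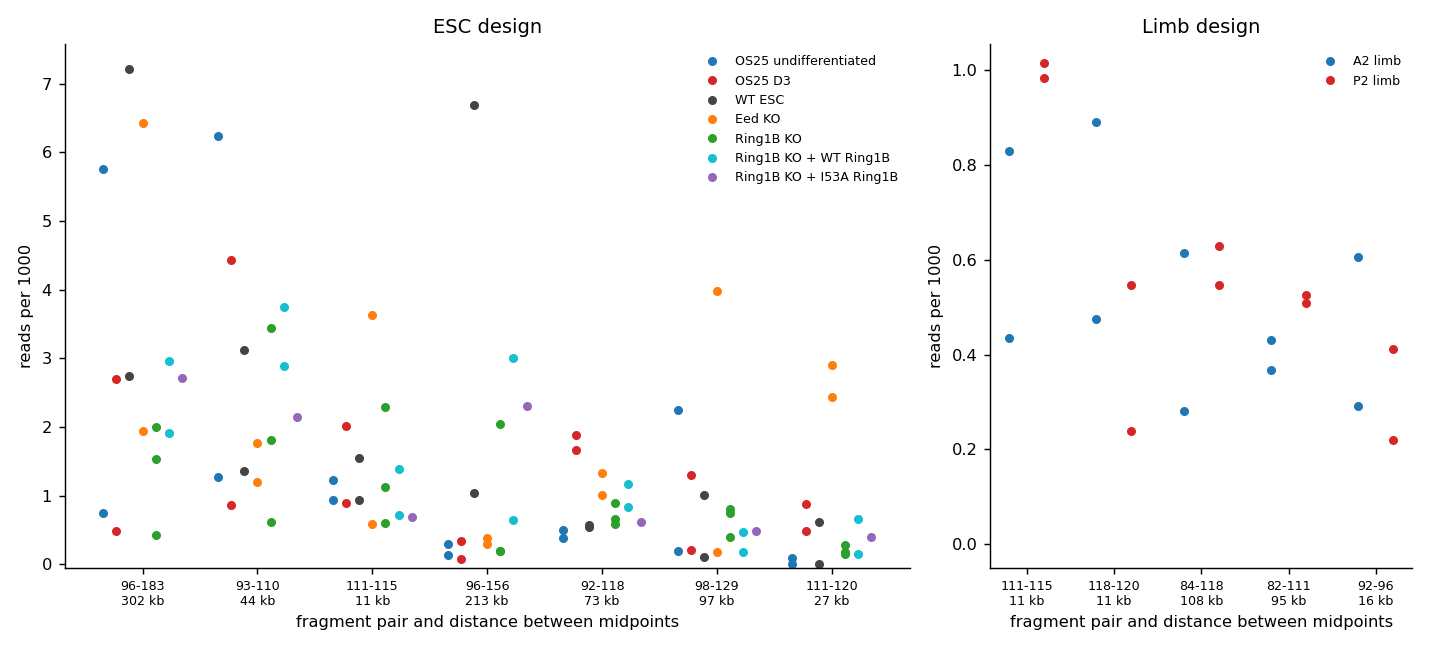
Frequency in reads per 1000 of the fragment pairs of the interval that were highest in ESCs (left) and limb cells (right), 1 point per library on linear axes that differ between the panels, with fragment numbers and the distance between midpoints below. Eed KO points at 2.90 and 2.44 stood apart for the pair of mHoxD_111 and mHoxD_120 and D3 points at 1.66 and 1.88 for that of mHoxD_92 and mHoxD_118, and replicates spread widely for the pair at the left.

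Changes were then sought over bins as long as a segment laid outward from the interval, with bin pairs of the whole region in the fit. Of the interval's bin pairs, 93 of 98 in ESCs and 144 of 170 in limb cells had a mean above 0.02 and were tested. In D3 cells 0 of 93 were called (0.0% of 560 over the region), and 2 had an unadjusted p under 0.05, both higher in D3 cells (3.75% over the region). These were the bin pair of Hoxd3 to Hoxd1 with the segment next to Mtx2, at 0.793 and 0.840 against 0.363 and 0.390, and that segment with a stretch of the desert, at 0.348 and 0.269 against 0.128 and 0.0848. In Ring1B-/- ESCs 0 were called (0.0% over the region) and 4 had an unadjusted p under 0.05 (8.04% over the region). With wild-type Ring1B restored, 0 were called (0.0%) and 10 had an unadjusted p under 0.05 (8.75%), 8 of them lower than in Ring1B-/- ESCs. In limb cells 0 of 144 were called (0.0% of 1575), and 5 had an unadjusted p under 0.05 (2.73%). The median log2 change of the interval's bin pairs was 0.14 for D3, against 0.11 over the region. It was 0.29 for Ring1B-/-, against 0.19, and -0.22 for wild-type Ring1B, against -0.05. In limb cells it was -0.05, against -0.02.

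In Eed-/- ESCs 1 of 93 bin pairs was called, against 7 of 560 over the region (1.25%). It joined the middle segment of the interval to Evx2, a homeobox gene beside the cluster, and the stretch up to Hoxd13, over 3 fragment pairs with midpoints 130.5 to 141.9 kb apart. Both Eed-/- libraries held no read, against 0.121 and 0.237 in wild-type ESCs, and the other 10 ESC libraries had 0.0553 to 0.206. Most of it lay in mHoxD_108 with mHoxD_67, the fragment that carries the start of Evx2, at 0.364 and 0.387 in wild-type ESCs. The test, with its pseudocount, gave a log2 difference of -3.25 (limma adjusted p = 0.0345). Against 3 reads per library the contact was 177-fold lower. That figure covers counting error only and is no lower limit on the change, since replicates also differed in empty pairs. The pair mHoxD_69–mHoxD_108 of this bin pair had 0 and 0.204 in wild-type ESCs. The call was lost when any one of the 4 compared libraries was left out and with a pseudocount of 0.1 (limma adjusted p = 0.0521). In the Eed-/- libraries 67.9% and 65.8% of the interval's pairs were empty, against 63.3% and 64.2% in wild-type ESCs, and the part of this in the result was not tested.

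At an unadjusted p under 0.05 there were 11 bin pairs in Eed-/- ESCs (12.1% over the region), 7 lower and 4 higher. Among the lower was the Hoxd1 end of the interval with Hoxd10 to Hoxd8, at 0.0340 and 0.00985 against 0.148 and 0.177 in wild-type ESCs. Among the higher was the segment next to Mtx2 with the start of Mtx2 (mHoxD_111–mHoxD_120 included), at 1.39 and 1.60 against 0.183 and 0.422. Neither passed after adjustment (limma adjusted p = 0.0865 and 0.108). The median over the interval's bin pairs was -0.07, against 0.03 over the region.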

How the data were processed

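For each library (18) the deposited matrix holds signal values that the authors made from Ion Torrent reads with a Galaxy pipeline for 5C data, as the reads of each fragment pair per 1000 reads of the sequence run. No aligner is named in the sources used here, and mm9 comes from the submitters' processing notes. Nonzero values were whole multiples of 1 read, which gave the totals. Undifferentiated OS25 libraries were assigned by title, since their labels also carry the text on differentiation.

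The members, windows and bins were chosen with earlier results of these data known. Windows follow gene positions in GENCODE M1, with the 5′ flank up to 74498311, 5′ Hoxd up to 74548285, 3′ Hoxd up to 74604632, the interval from 74604633 to 74663859, Mtx2 up to 74716488 and the desert beyond. Fragments were assigned by midpoint. Levels and bins were tested as log2(mean + 0.02) and ratios without a pseudocount, with the two-sided moderated test of limma 3.58.1 (R 4.3.3), in 1 fit per design and at 0.05 after Benjamini-Hochberg adjustment. Adjustment ran over 84 (ESC) or 28 (limb) levels, over 16 or 4 ratio contrasts, over 24 or 8 tests against 0, and over bin pairs within a comparison. Spread was borrowed across values that share fragment pairs. For ESC levels (18.2 degrees of freedom) and bin pairs the borrowing was partial. Limb levels (56) and limb ratios (8) had a single shared spread, and ESC ratios (28) nearly so. Overlapping values thus entered as if they were independent, and p-values may be too small. The procedure was tested on simulated data. Named items are all windows and fragments, the 3 highest pairs of each group and called bin pairs without overlap. Bin pairs short of the threshold were chosen after their values were seen. Python 3.11.15 with numpy 2.4.6 and pandas 2.3.3 gave the means and ratios. Alternatives covered scaling, pseudocount, distance, strongest pairs, primers, libraries, the ends of the interval, distance classes and the filter on low values.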

Additional observations from a re-analysis of the deposited data

How the results depend on the processing

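Values are log2 differences or ratios, with limma adjusted p in parentheses. The difference with Mtx2 between Eed-/- and wild-type ESCs was 1.03 (0.0093) with libraries scaled to equal sums, 0.91 (0.045) with a pseudocount of 0.005, 0.82 (0.0235) with only the compared groups fitted and -0.23 (0.507) with primers scaled to equal means. That inside the interval for Ring1B-/- against wild-type ESCs was 0.72 (0.0389) without the strongest pair and -0.32 (0.319) with primers scaled, and for wild-type Ring1B against Ring1B-/- it was -1.09 (0.0037) over pairs at least 20 kb apart, -0.69 (0.0486) without the strongest pair and 0.14 (0.671) with primers scaled. For the 5′ flank over background, D3 against undifferentiated was -0.48 (0.299) with distance classes of 20 kb, -0.76 (0.227) with primers scaled and -0.76 (0.121) with the spread of each ratio by itself. Eed-/- against wild-type was -0.60 (0.304) with primers scaled and -1.26 (0.0945) with only the compared groups, and P2 against A2 was -0.35 (0.104) over pairs at least 20 kb apart, -0.34 (0.147) without 10 kb at each end, -0.32 (0.0994) without the highest pair of each class and -0.35 (0.0922) with its own spread. For Eed-/- against wild-type ESCs, the cluster over Mtx2 and desert was 0.15 (0.749) with primers scaled, -0.70 (0.113) without 10 kb at each end, -0.90 (0.103) with its own spread and -0.90 (0.255) with only the compared groups, and the cluster over background was -0.65 (0.0539) over pairs at least 20 kb apart, 0.22 (0.561) with primers scaled and -0.81 (0.255) with only the compared groups. Against 0, the cluster over Mtx2 and desert with primers scaled was -0.48 in undifferentiated cells, -0.60 in wild-type, -0.45 in Eed-/-, -0.48 in Ring1B-/- and -0.59 in ESCs with wild-type Ring1B, -0.33 in A2 and -0.46 in P2. In D3 cells it was 0.41 over pairs at least 20 kb apart and with only the compared groups, 0.72 without 10 kb at each end and 0.53 without the highest pair of each class, each called, and in Eed-/- ESCs 0.083 without 10 kb at each end. It was not called in wild-type ESCs (0.63, 0.0887) with only the compared groups, in Ring1B-/- ESCs (0.43, 0.0718 and 0.0887) with its own spread or only the compared groups, nor with wild-type Ring1B (0.59, 0.0521) with its own spread. The 5′ flank over background in wild-type ESCs was -0.16 (0.528) without 10 kb at each end, -0.49 (0.0718) with its own spread and -0.49 (0.167) with only the compared groups. Interval levels called in ESCs, 0 as reported, were 1 with equal sums, a pseudocount of 0.005, pairs at least 20 kb apart or only the compared groups, and 2 without the strongest pair. Ratio contrasts called in ESCs, 4 as reported, were 0 with primers scaled, 2 with own spreads and 1 with only the compared groups, and in limb cells, 1 as reported, 0 under the 4 settings named for P2. Ratios called against 0 were 23 in ESCs and 6 in limb cells with primers scaled. The bin pair of Evx2 had -1.45 (0.0521) with a pseudocount of 0.1. The causes of these changes were not tested, also for primer scaling, which by construction reduces what a fragment shares with all partners.

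Leaving out 1 library at a time gave D3 against undifferentiated inside the interval 0.44 to 0.67. Eed-/- against wild-type ranged from -0.89 to -0.29 with 5′ Hoxd and from 0.45 to 1.18 with Mtx2, Ring1B-/- inside from 0.45 to 0.83 and wild-type Ring1B inside from -0.85 to -0.46. Ratios ranged from -0.92 to -0.60 for the D3 flank, from -1.41 to -0.39 for the cluster over Mtx2 and desert, -0.92 to -0.70 for the cluster over background (not called without library 1 of the Eed-/- ESCs, 0.149) and -1.64 to -0.88 for the flank in Eed-/- ESCs, and from -0.40 to -0.30 for the limb flank. Against 0 the cluster over Mtx2 and desert ranged from 0.54 to 0.82 in undifferentiated cells (lost without library 2), 0.38 to 0.43 in D3, 0.12 to 1.14 in wild-type (lost without library 1), -0.35 to -0.19 in Eed-/-, 0.35 to 0.49 in Ring1B-/- (lost without library 2 or 3), 0.53 to 0.65 with wild-type Ring1B (lost without library 1), -0.08 to -0.02 in A2 and -0.037 to 0.19 in P2. The flank over background ranged from -0.98 to -0.66, -1.68 to -1.48, -0.87 to -0.11, -1.92 to -1.59, -0.90 to -0.65 and -0.69 to -0.57 in these ESC groups (lost without library 1 in wild-type ESCs and in those with wild-type Ring1B), -1.38 to -1.28 in A2 and -1.70 to -1.66 in P2. The bin pair of Evx2 ranged from -3.69 to -2.82. Calls ranged from 0 to 3 for ESC levels and 0 to 0 for limb levels, 1 to 7 and 0 to 1 for ratio contrasts, 9 to 20 and 2 to 6 for ratios against 0, and 0 to 0 for bin pairs of the interval in each ESC contrast and 0 to 1 in limb cells.

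No paired analysis was possible because the labels tie no library of one group to a library of another. A count test on recovered reads was planned and not run. The settings with own spreads and without the highest pair of each class were chosen after seeing the data. Up to 68.6% of the interval's pairs were empty in an ESC library, and no test of single pairs was made. Replicates differed over single pairs beyond counting error (chi-square over degrees of freedom from 18.5 to 184).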
